A study of Homo sapiens with 48 samples.

Results

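Untreated carcinoma lines were compared by whether the inducible heat shock genes HSPA1A and HSPA1B later rose when the proteasome was inhibited. The members were 18 of the 48 libraries of the series, the DMSO libraries of 6 of its 8 cell lines. H-23 and H-1299 (lung cancer) and CAPAN-2 (pancreatic cancer) formed the inducing side, in which the summed HSPA1A and HSPA1B counts rose after carfilzomib. RKO and DLD-1 (colon cancer) and PANC-1 (pancreatic cancer) formed the non-inducing side, in which they did not rise. The cell line was the unit, with 3 lines a side and 3 biological replicates a line. All 18 libraries came from cells given the solvent DMSO for 24 h, and none received carfilzomib.

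The study treated 6 carcinoma lines and the multiple myeloma lines H-929 and RPMI with carfilzomib, an irreversible proteasome inhibitor, or with DMSO, and sequenced their RNA. Its title names HSP70 as the driver of the response to proteasome inhibition. Each line is 1 established culture grown in dishes, so the 3 libraries of a line share their source and are not replicates of a side. Both lung lines were on the inducing side and both colon lines on the other, so tumour type and side cannot be told apart in those 4 lines. The pancreatic pair, CAPAN-2 and PANC-1, was the only tumour type with a line on each side.

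HSP70 proteins bind unfolded proteins and, together with J-domain proteins and nucleotide exchange factors, refold them or hand them to the proteasome. Cells hold a constitutive HSP70, HSPA8, and inducible copies, HSPA1A and HSPA1B. The heat shock factor HSF1 switches the inducible copies on by binding repeats of the letters GAA and TTC in their promoters when misfolded protein accumulates, as it does when the proteasome is blocked.

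The promoters of HSPA1A and HSPA1B are shown because their genes defined the sides. Both sequences are RefSeq sequence of GRCh38.p14, 5′ to 3′, from 250 bases before the RefSeq start up to the base before the first transcribed base in GENCODE release 29, and capitals mark the letters GAANNTTC. HSPA1A lies at chr6:31815293-31815463 and HSPA1B at chr6:31827488-31827734, both on the plus strand.
HSPA1A: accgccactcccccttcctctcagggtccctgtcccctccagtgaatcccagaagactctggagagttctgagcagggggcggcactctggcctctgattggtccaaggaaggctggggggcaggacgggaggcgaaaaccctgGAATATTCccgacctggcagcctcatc
HSPA1B: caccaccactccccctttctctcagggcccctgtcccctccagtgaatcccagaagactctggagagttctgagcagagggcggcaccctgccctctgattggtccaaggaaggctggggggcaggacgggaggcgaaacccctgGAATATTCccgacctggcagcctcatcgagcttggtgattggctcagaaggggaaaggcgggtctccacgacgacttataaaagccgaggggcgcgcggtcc
Each promoter held 1 match, beginning 106 bases before the RefSeq start in HSPA1A and 105 bases before it in HSPA1B. The printed stretches, of 171 and 247 bases, end before the RefSeq start, so these distances do not count from their last base. The pattern reads the same on both strands, and 1597 of 27305 RefSeq promoters of 250 bases (5.85%) held it. A match describes the letters and not a bound site.

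The sides were chosen by the change of the summed HSPA1A and HSPA1B counts after carfilzomib, so these values are given as a description without a test. Levels are in CPM (counts scaled to the library's depth), scaled by TMM, edgeR's correction for library composition. For this sum each line was scaled alone, over its DMSO and carfilzomib libraries, so levels of different lines compare only roughly. In DMSO the summed HSPA1A and HSPA1B level was 6.25 ± 0.47 CPM in H-23, 6.76 ± 1.35 in H-1299, then 2.99 ± 1.29 in CAPAN-2 (SD, n = 3). After carfilzomib it was 26.7 ± 13, 485 ± 240 and 29 ± 11.7 CPM, log2 changes of 2.13, 6.14 and 3.26. In the non-inducing lines the DMSO level was 1.82 ± 0.42 CPM in RKO, 5.11 ± 0.36 in DLD-1 and 7.23 ± 5.11 in PANC-1 (SD, n = 3). After carfilzomib it was 1.41 ± 0.688, 4 ± 0.475 and 6.53 ± 1.16 CPM, log2 changes of -0.40, -0.35 and -0.14. H-23 was the line just inside the rule and PANC-1 the line just outside it. The DMSO libraries of PANC-1 held 13, 3.39 and 5.26 CPM, and without the first of them its log2 change was 0.59, a rise. The place of PANC-1 on the non-inducing side therefore rests on that library. Before treatment the sides overlapped. RKO had the lowest mean. H-1299 and PANC-1 had the highest means, and their order is not read, since each line was scaled alone. The PANC-1 mean rested on its first DMSO library. HSPA1A and HSPA1B are near-identical and had 4 rows each in the count table, so their rows were summed.

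**Figure D1:**
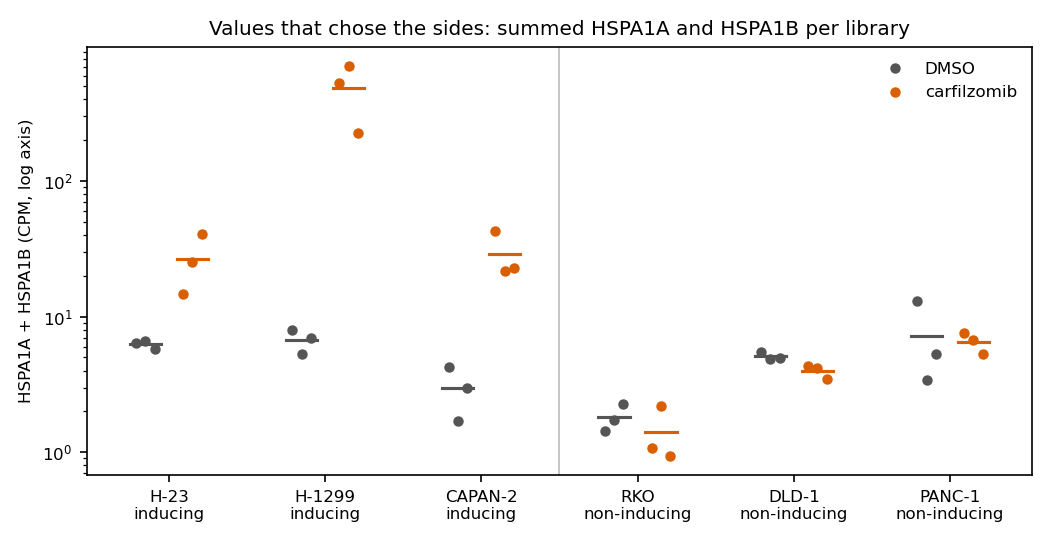
Summed HSPA1A and HSPA1B level (CPM, log axis) of each library, with DMSO and carfilzomib side by side for the 6 carcinoma lines and a short bar at the mean of 3 libraries. H-1299 reached 226 to 701 CPM after carfilzomib, while the DMSO points of both sides lay between 1.44 and 13 CPM.

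Library totals ran from 12.7 M counts (RKO) to 64.4 M (H-1299), and the summed total of a line from 49.1 M in RKO to 144 M in H-1299. Marker genes of the labelled tissues were uneven. The counted colon markers summed to 544 CPM in DLD-1, with 7 of 8 at 1 CPM or more, but to 83.3 CPM in RKO, with 2 of 8. The RKO sum was not far from those of PANC-1 at 67.6, CAPAN-2 at 53.5 and H-1299 at 52.6 CPM. Lung epithelium markers summed to 4.29 CPM in H-23 and 1.32 in H-1299, near those of CAPAN-2 at 3.27 and DLD-1 at 3.44. The lung label thus had no support from the 8 markers counted. NKX2-1, on the list of 9, had no row under its symbol and could not be counted. Pancreatic duct markers summed to 4070 CPM in CAPAN-2, 1100 in DLD-1 and at least 977 in each PANC-1 library. Leukocyte markers stayed between 0.166 and 17.1 CPM and endothelial markers between 0.247 and 5.63 CPM, while fibroblast markers reached 170 CPM in PANC-1. Their part in any result was not tested.

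With edgeR no gene separated the sides beyond the spread between lines. Of 19452 genes tested with edgeR's quasi-likelihood test on counts summed per line, none was called higher (0%) and none lower (0%) at an adjusted p under 0.05. At an unadjusted p under 0.05 there were 637 genes (3.27%), 360 higher (1.85%) and 277 lower (1.42%) in the inducing lines. That is below the share of 0.05 that such a threshold would pass without any difference between the sides. Without PANC-1 the count was 1422 of 20531 genes, above that share. Without CAPAN-2 it was 963 of 20395, below it. Leaving out each other line gave from 512 of 20667 (RKO) to 719 of 20440 (DLD-1), also below. None of these fits had a call. The lowest adjusted p was 0.495, for ZSCAN18. The median log2 difference over all genes was 0.04, and 52.2% of genes lay above 0. Other tools on the same lines ranged from 0 calls with limma on line means, through 7 with the line as a random block over 18 libraries, to 151 with DESeq2 (105 higher and 46 lower). When the libraries were taken as the units, with the lines as fixed groups, 13894 genes were called, 7518 higher and 6376 lower. That error is the spread between cultures of the same line and does not speak for a side.

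By the correlation of their levels, lines of a side were no more alike than lines of different sides. Over 19452 genes the correlation of log2 levels averaged 0.806 over the 6 pairs within a side (0.766 to 0.875) and 0.812 over the 9 pairs across the sides (0.752 to 0.884). The pair with the highest correlation was H-23 with PANC-1, one from each side, at 0.884. These correlations are across genes, share the same lines between pairs and are given as a description.

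In 810 genes (4.16%) all 3 inducing lines lay above all 3 non-inducing lines, and in 662 (3.40%) they lay below, 1472 (7.57%) in all. With library totals in place of TMM the counts were 687 higher and 737 lower, so which direction held more genes depended on the scaling. The 6 lines can be split 3 against 3 in 20 ways. On average over these splits, a share of 0.1 of genes without ties would show no overlap, both directions together. The 7.57% found was below that share, so the number of genes without overlap does not by itself tie them to the side. The 12 genes with the smallest p in each direction were named among those at 2 CPM or more in the 3 lines of the higher side, 516 and 432 genes. The absence of overlap is part of that choice and supports nothing, and it also fixes the direction in the pancreatic pair. None of these 24 genes passed the adjusted threshold with edgeR, and 19 of them did with DESeq2.

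ZSCAN18, which encodes a zinc finger protein with a SCAN domain, had the smallest p (chr19:58083838-58118427, minus strand; coordinates here are those of GENCODE release 29 on GRCh38). The libraries of H-23 held 38.9, 43.7 and 41.8 CPM, those of H-1299 65.9, 58.1 and 64.3 CPM and those of CAPAN-2 24.0, 27.7 and 32.4 CPM. RKO held 0.151, 0.0685 and 0.338 CPM, DLD-1 0.0614, 0.0653 and 0.127 CPM and PANC-1 0.0359, 0.136 and 0.0897 CPM. All 9 libraries of the inducing lines were high and all 9 of the others close to 0. The log2 difference was 8.45 ± 0.818 (SE), with an adjusted p of 0.495 over all genes in edgeR.

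CDKN2A encodes the cell cycle inhibitor p16INK4a and, from another reading frame, p14ARF, and is often deleted or silenced in tumours (chr9:21967753-21995301, minus strand). H-23 held 13.3, 14.8 and 13.9 CPM, H-1299 73.2, 71.8 and 73.9 CPM and CAPAN-2 152, 163 and 145 CPM. RKO held 0.0754, 0.617 and 0.296 CPM and DLD-1 0.205, 0 and 0.0636 CPM, while the 3 PANC-1 libraries had no count. The sides were again far apart, although the inducing lines differed among themselves more than 10-fold. Its log2 difference was 9.13 ± 1.87 (SE), with an adjusted p of 0.998 in edgeR.

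FAM50B and PNMA8A had no count in any of the 9 non-inducing libraries. FAM50B, an imprinted retrogene expressed from the paternal copy (chr6:3849373-3851320, plus strand), stood at 33.4 CPM in H-23, 36.8 in H-1299 and 11.1 in CAPAN-2. Over the counts of the 3 inducing lines pooled it was at least 2390-fold higher. PNMA8A, of the paraneoplastic antigen family (chr19:46466491-46471563, minus strand), stood at 41, 59.9 and 2.22 CPM, and over the pooled counts it was at least 3100-fold higher. Neither bound holds for CAPAN-2 alone, the lowest inducing line for both genes. Both bounds use a floor of 3 counts over the 3 non-inducing lines together, 0.0119 CPM. They cover counting error only, not the spread between lines. SYT14, a synaptotagmin, and NOVA1, a splicing regulator known from neurons, each had 1 count in the non-inducing lines. The pooled ratio was 3560 (95% interval 639 to 141000) for SYT14 and 865 (155 to 34200) for NOVA1, again for counting error only.

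GRAMD1B, which moves cholesterol from the plasma membrane to the endoplasmic reticulum (chr11:123358428-123627774, plus strand), was at 754 CPM in H-23 but 24.0 in H-1299 and 14.2 in CAPAN-2, against 0.132 to 0.408 CPM in the other 3 lines. ZNF549, a zinc finger gene on chromosome 19, was at 21, 14.9 and 9.15 CPM against 0.018 to 0.342. The named list was completed by genes whose reads may belong elsewhere. GNAS-AS1 is antisense to GNAS and had 2 counts in the non-inducing lines. ZNF542P and SRGAP2D are pseudogenes, and FAM72C belongs to a family of near-identical copies. Their levels in the inducing lines ran from 3.01 CPM (GNAS-AS1, CAPAN-2) to 106 CPM (ZNF542P, H-1299).

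**Figure D2:**
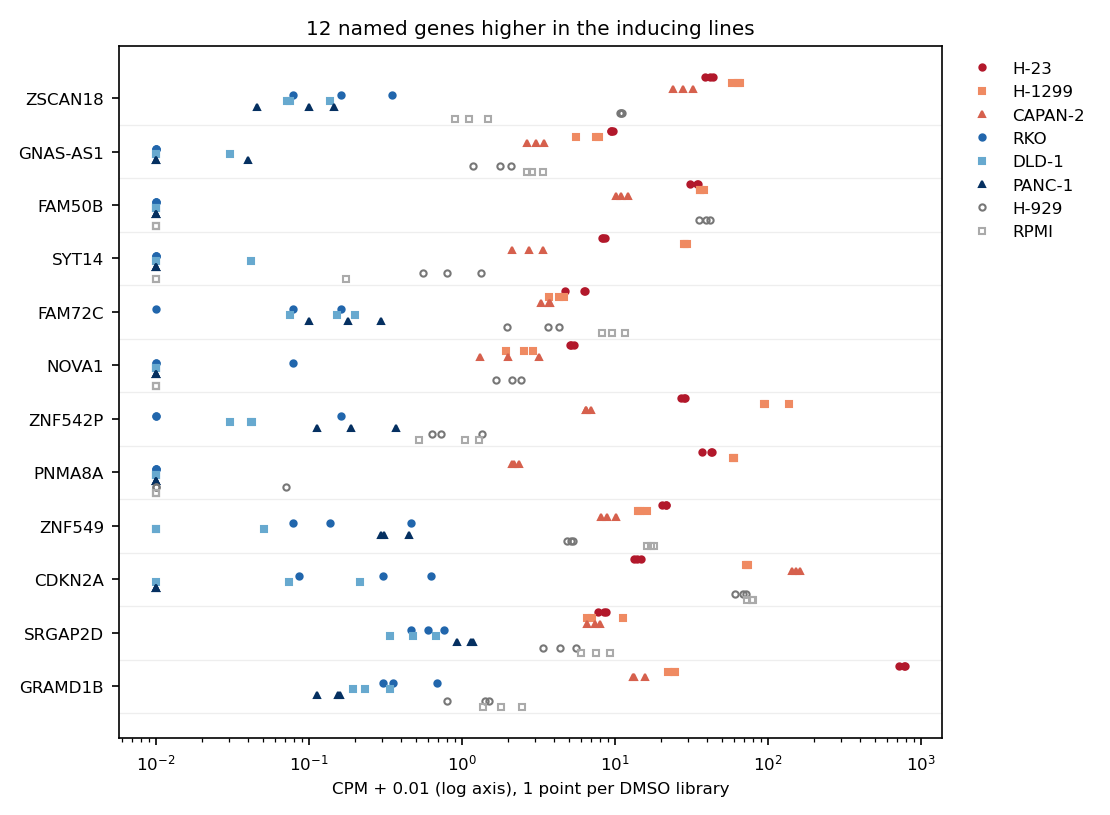
Level of the 12 named higher genes in each DMSO library (CPM + 0.01, log axis), filled symbols for the 6 carcinoma lines and open symbols for the 2 myeloma lines, which played no part in choosing the genes. Points at 0.01 are libraries with no count, as for FAM50B and PNMA8A in RKO, DLD-1 and PANC-1.

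The promoters of ZSCAN18 and FAM50B are shown as those of the gene with the smallest p and of a gene without a count on 1 side. They are RefSeq sequence of GRCh38.p14 at chr19:58118428-58118654 (minus strand) and chr6:3849123-3849372 (plus strand), cut as above, and capitals mark CG dinucleotides, the letters that DNA methylation acts on. The last capital C of ZSCAN18 belongs to a CG whose G lies beyond the printed stretch. Methylation was not measured in these files.
ZSCAN18: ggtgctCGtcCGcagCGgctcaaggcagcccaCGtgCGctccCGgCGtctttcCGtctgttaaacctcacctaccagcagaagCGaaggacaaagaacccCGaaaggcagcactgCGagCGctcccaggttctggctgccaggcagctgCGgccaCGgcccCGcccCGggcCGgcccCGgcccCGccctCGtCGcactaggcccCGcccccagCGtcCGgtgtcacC
FAM50B: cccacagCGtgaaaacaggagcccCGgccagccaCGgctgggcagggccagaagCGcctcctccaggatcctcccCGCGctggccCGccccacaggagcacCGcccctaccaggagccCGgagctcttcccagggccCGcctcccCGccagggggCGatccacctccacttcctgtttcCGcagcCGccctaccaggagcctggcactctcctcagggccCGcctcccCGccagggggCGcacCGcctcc
Over the full 250 bases before the RefSeq start, ZSCAN18 had 27 CG dinucleotides and FAM50B 18. The 8 named higher genes with a RefSeq promoter had a median of 24 and the 9 named lower genes a median of 30. All 12998 tested genes with a promoter had a median of 20 (quartiles 11 and 27), and 98.5% of them held at least 1.

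On the lower side, MYO10, the myosin of filopodia tips, was the gene with the smallest p whose reads are not shared with a parent gene (chr5:16661914-16936276, minus strand). H-23 held 41.4, 41.9 and 41.6 CPM, H-1299 63.2, 59.2 and 62.2 CPM and CAPAN-2 29.4 to 32.3 CPM. RKO held 377, 354 and 356 CPM, DLD-1 300, 271 and 279 CPM and PANC-1 184, 190 and 185 CPM. The highest inducing library lay well under the lowest non-inducing one. The log2 difference was -2.64 ± 0.455 (SE), with an adjusted p of 0.998 in edgeR.

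ARNT2, a basic helix-loop-helix partner of hypoxia and neuronal transcription factors, ran from 0.179 to 1.6 CPM in the inducing lines and from 17 to 44.9 CPM in the others. ERO1B, which forms disulfide bonds in the endoplasmic reticulum, was at 7.38 to 11.7 CPM against 26.4 to 88.8. STIM1, the calcium sensor of the same organelle, was at 19.1 to 25.9 CPM against 52.8 to 141, and DMXL2, a regulator of the vacuolar proton pump, at 65.9 to 79.4 against 137 to 221. CAMK1, a calcium and calmodulin dependent kinase, was at 2.46 to 4.48 CPM against 9.16 to 31.7.

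The other named lower genes were PTK7, PLXNA3, CD24, TOLLIP and a pair of pseudogenes. PTK7, a pseudokinase receptor of Wnt signalling, was at 72.9 CPM in H-23, 18.1 in H-1299 and 48.9 in CAPAN-2, against 166 in RKO, 196 in DLD-1 and 608 in PANC-1. PLXNA3, a semaphorin receptor, was at 13.9 to 26.9 CPM against 40.1 to 98.1. CD24, a small glycoprotein of the cell surface, spanned 5.73 to 281 CPM in the non-inducing lines, and its lowest level there, in RKO, lay close to the 4.09 CPM of CAPAN-2. TOLLIP, an adaptor of Toll-like receptor signalling and of autophagy, was at 20.1 to 23.7 CPM against 48.3 to 82.9. RPSAP19 and RPSAP15, at 0.711 to 1.30 CPM against 11.7 to 32.7, are processed pseudogenes of RPSA, and their reads may come from that gene or other copies.

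**Figure D3:**
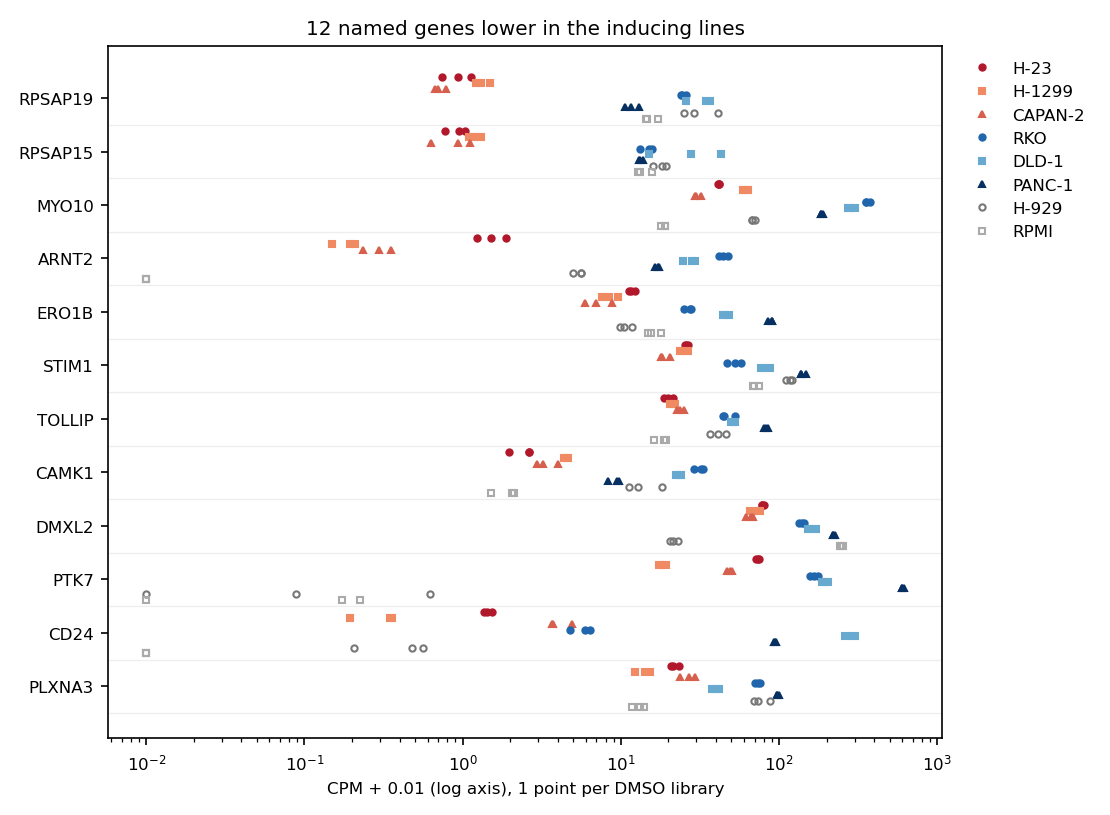
Level of the 12 named lower genes in each DMSO library (CPM + 0.01, log axis), with the symbols of the plot of higher genes. MYO10 lay at 184 CPM or more in the 9 non-inducing libraries and at 63.2 CPM or less in the 9 inducing ones.

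The untreated myeloma lines gave a further view, since they were used neither for the sides nor for the named genes. Their HSPA1A and HSPA1B sum showed log2 changes of 9.60 in H-929 and 7.75 in RPMI after carfilzomib. For 9 of the 12 named higher genes both myeloma lines also lay above all 3 non-inducing lines, among them ZSCAN18 (11 CPM in H-929 and 1.23 in RPMI), ZNF549 (5.13 and 17.1) and CDKN2A (67.3 and 77.2). Lying above those lines did not mean reaching the inducing lines. H-929 reached the level of the lowest inducing line for only 2 of the 12 genes, and RPMI for 5. SYT14 counted among the 9 with 0.073 CPM in RPMI. FAM50B was at 39.1 CPM in H-929 but had no count in RPMI, and PNMA8A was at 0.0225 CPM and 0. Among the 12 named lower genes 6 kept the order with the myeloma lines, MYO10 (68.2 and 18.7 CPM) and PTK7 (0.247 and 0.146) among them, while STIM1 lay at 117 and 70.0 CPM, within the non-inducing range. Over all genes the same held for 244 of the 810 higher genes (30.1%) and 260 of the 662 lower genes (39.3%). The rule for named genes favours genes near 0 on 1 side, so these shares are not read against each other, and the myeloma lines differ from the carcinoma lines in lineage.

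Of the heat shock factors and their modulators 10 genes were tested and none was called. EP300, an acetyltransferase that acts on HSF1, was the only 1 without overlap (10% of the list against 3.40% of all genes). It was lower, at 19.4 to 62.9 CPM against 63.5 to 108. The list's median log2 difference was -0.41 against 0.04 for all genes, with 1 of 10 above 0. HSF2, a partner factor of HSF1, was at 22.9, 58.0 and 13.2 CPM in H-23, H-1299 and CAPAN-2 and at 30.4, 32.6 and 53.2 CPM in RKO, DLD-1 and PANC-1, with a log2 difference of -0.30 ± 0.628 (SE, adjusted p = 0.998, edgeR). The HSF1 symbol stood on an identifier other than its GENCODE one, with too few counts to test, so HSF1 was not analysed here.

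Among the 12 tested HSP70 genes other than HSPA1A and HSPA1B, none was called and the median log2 difference was 0.13. HSPA2, a member best known from testis, was the only 1 whose lines did not overlap (chr14:64535905-64546173, plus strand), 8.33% of the list against 4.16% of all genes. H-23 held 42.6, 45 and 45.6 CPM, H-1299 22.5, 25.2 and 22.7 CPM and CAPAN-2 98.0, 87.8 and 92.1 CPM. RKO held 0.151, 0.343 and 0.0423 CPM, DLD-1 2.29, 3.04 and 2.77 CPM and PANC-1 18.1, 16.2 and 16.2 CPM. The libraries of the 2 sides did not overlap either, but PANC-1 lay nearer to H-1299 than to the other non-inducing lines. In the untreated myeloma lines HSPA2 was at 7.71 CPM (H-929) and 1.17 CPM (RPMI), within the range of the non-inducing lines. The log2 difference was 3.04 ± 1.47 (SE), with an adjusted p of 0.998 in edgeR.

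The abundant HSP70 genes overlapped. HSPA8, the constitutive cytosolic form, was at 2137, 4266 and 2132 CPM in the inducing lines and at 1168, 2136 and 2095 in RKO, DLD-1 and PANC-1, a log2 difference of 0.66 ± 0.496 (SE, adjusted p = 0.998, edgeR). HSPA5, the form of the endoplasmic reticulum, differed by -0.88 ± 0.667, with RKO at 1101 CPM above the 5 other lines (165 to 543 CPM). HSPA9, the mitochondrial form, differed by -0.47 ± 0.373, and HSPH1, an exchange factor of the HSP110 type, by 0.65 ± 0.556, with RKO the lowest line at 60.5 CPM. HSPA6, a strictly inducible form, was at 0.136 to 4.79 CPM in the 6 lines.

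Co-chaperones of the J-domain family gave no call in 29 tested genes and a median of 0.15, and DNAJC5 was the only 1 without overlap (3.45% higher, against 4.16% of all genes). DNAJB1, the main cytosolic partner of inducible HSP70, was at 110, 231 and 136 CPM against 101, 137 and 111 CPM (log2 difference 0.45 ± 0.400, SE, adjusted p = 0.998, edgeR), and DNAJA1 differed by 0.15 ± 0.546. In the HSP90 list 17 genes were tested and none was called. PTGES3 and GRPEL1 lay higher without overlap (11.8%, against 4.16% of all genes) and STUB1 lower (5.88%, against 3.40%). HSP90AA1 differed by 0.19 ± 0.833, HSP90AB1 by -0.07 ± 0.666 and HSP90B1 by -0.32 ± 0.376. H-1299 had the highest HSP90AA1 level (3084 CPM) and PANC-1 the lowest (420 CPM), so the spread within each side exceeded the difference.

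BAG3 and STUB1 were lower in the inducing lines, short of the adjusted threshold. BAG3 is the HSP70 exchange factor that routes clients to autophagy (chr10:119651370-119677819, plus strand). H-23 held 56.2, 52.7 and 53.5 CPM, H-1299 52.1, 56.7 and 52.6 CPM and CAPAN-2 31.7, 30.8 and 30.9 CPM. RKO held 95.9, 81.6 and 88.4 CPM, DLD-1 70.5, 62.9 and 63.4 CPM and PANC-1 114, 117 and 115 CPM. No inducing library reached the lowest non-inducing one, and the log2 difference was -0.96 ± 0.403 (SE), with an adjusted p of 0.998 in edgeR. The untreated myeloma lines held 61.3 to 66 CPM (H-929), within reach of DLD-1, and 32.9 to 39 CPM (RPMI).

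STUB1 encodes the ubiquitin ligase CHIP, which tags clients of HSP70 and HSP90 (chr16:680224-682870, plus strand). H-23 held 32, 34.6 and 31.9 CPM, H-1299 40.2, 40.1 and 37.3 CPM and CAPAN-2 31.3, 32.6 and 30.5 CPM. RKO held 75.1, 82.7 and 83.5 CPM, DLD-1 55.0, 51.4 and 35.7 CPM and PANC-1 54.8, 61.1 and 54.0 CPM. The lines did not overlap, but the third DLD-1 library lay within the range of H-1299. In the untreated myeloma lines STUB1 was at 76.8 CPM (H-929) and 78.3 CPM (RPMI), within the range of the non-inducing lines. The log2 difference was -0.85 ± 0.370 (SE), with an adjusted p of 0.998 in edgeR. BAG1, another exchange factor, was at 18.4 to 39.2 CPM against 41.9 to 52.9 (log2 difference -0.55 ± 0.430, SE, adjusted p = 0.998, edgeR). H-929 (114 CPM) and RPMI (75.2 CPM) lay above every carcinoma line for BAG1. HSPB1, the main small heat shock protein, overlapped (-0.25 ± 0.521), and HSPB8 and CRYAB stayed under 2 CPM in all 6 lines. The list of small heat shock and BAG genes had a median of -0.25 over 11 tested genes, 2 of them (18.2%, against 3.40% of all genes) lower without overlap and none called.

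**Figure D4:**
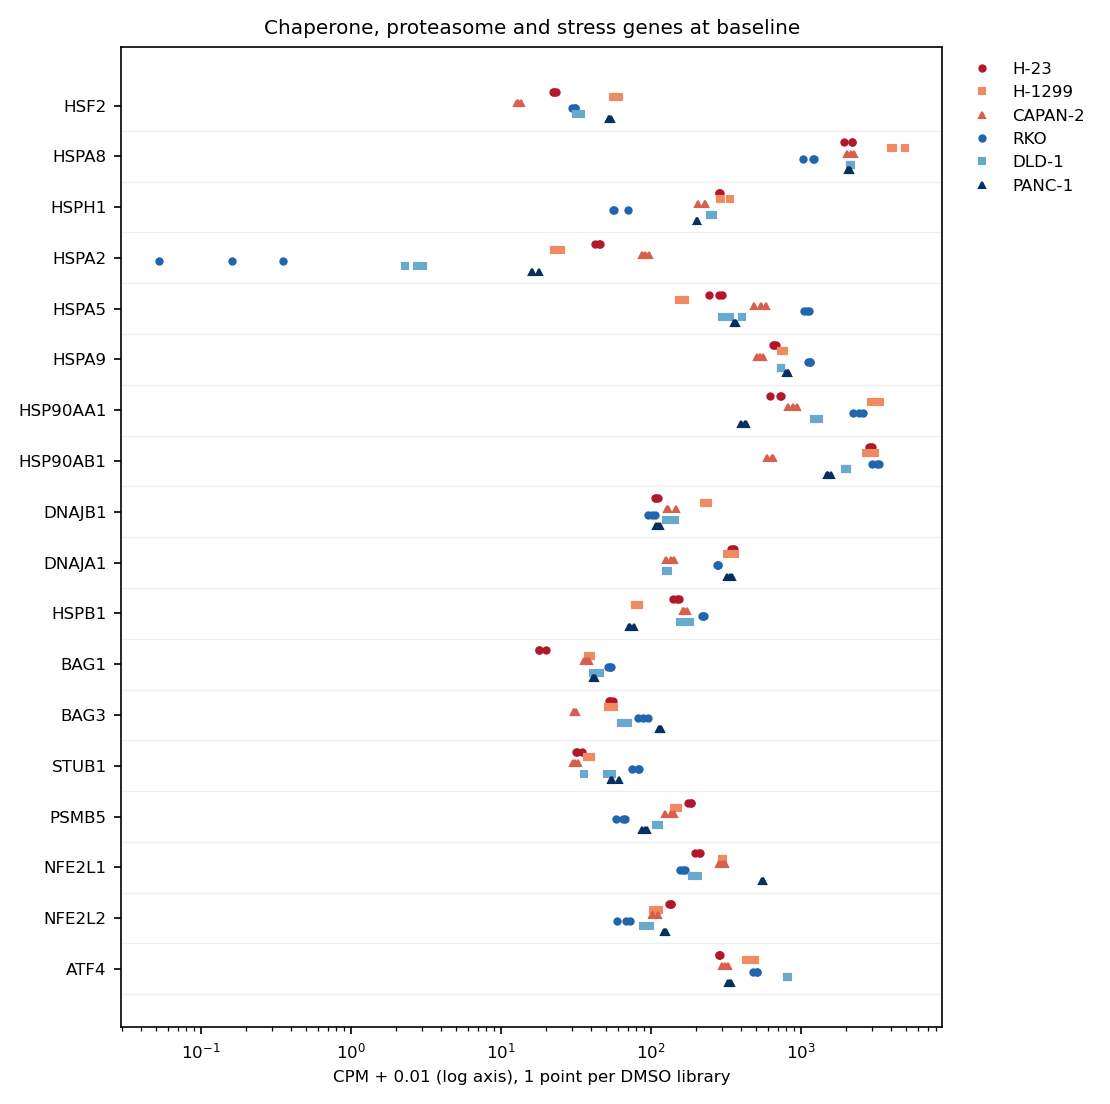
Level of 18 chaperone, proteasome and stress genes in each DMSO library of the 6 carcinoma lines (CPM + 0.01, log axis). Reddish symbols are the inducing lines and blue symbols the non-inducing lines. They separate for HSPA2, BAG3 and PSMB5 and, by a small gap (40.1 against 41 CPM), for BAG1. They nearly separate for STUB1 and are mixed for HSPA8, HSP90AA1 and HSP90AB1.

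Proteasome subunits lay higher in the inducing lines as a list, without a call. Of 30 tested subunits 27 had a log2 difference above 0, against 52.2% of all genes, and the median was 0.48. PSMA2, PSMA3, PSMA6, PSMB5, PSMC2 and PSMD4 were higher without overlap (20% of the list against 4.16% of all genes) and no subunit was lower without overlap. PSMB5 encodes the chymotrypsin-like subunit to which carfilzomib binds (chr14:23016543-23035230, minus strand). H-23 held 178, 184 and 184 CPM, H-1299 143, 152 and 147 CPM and CAPAN-2 137, 142 and 124 CPM. RKO held 58.9, 65.2 and 67 CPM, DLD-1 111, 109 and 114 CPM and PANC-1 87.2, 91.7 and 94.1 CPM. The lowest inducing library lay above the highest non-inducing one, by a narrow margin between CAPAN-2 and DLD-1. The log2 difference was 0.80 ± 0.356 (SE), with an adjusted p of 0.998 in edgeR. PSMB5 stood at 45.5 to 51.8 CPM in H-929 and 98.1 to 103 in RPMI, so the order did not extend to the myeloma lines. RKO was the lowest line for PSMA2, PSMA3, PSMA6, PSMB5 and PSMC2, at 58.3, 62.4, 77.6, 64.4 and 110 CPM.

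The factors that refill the proteasome pool when it is inhibited gave no call. NFE2L1, the factor behind that response, overlapped, with PANC-1 highest at 557 CPM (log2 difference -0.19 ± 0.550, SE, adjusted p = 0.998, edgeR), and NFE2L2, the factor of the antioxidant response, differed by 0.30 ± 0.367. POMP, the assembly chaperone of the catalytic core, was at 109 to 127 CPM in the inducing lines and 53.2 to 91.7 in the others. PSMB8, PSMB9 and SQSTM1 were on identifiers other than their GENCODE ones and were not analysed here. TRiC chaperonin subunits, which fold actin and tubulin, had a median of 0.51 with 8 of 8 above 0. CCT5 was the only subunit without overlap (12.5% of the list against 4.16% of all genes), at 571 to 1017 CPM against 408 to 569. The gap between CAPAN-2 and PANC-1 was smaller than the spread within either side.

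Stress pathways gave no call. Genes of the integrated stress response had a median of -0.41 over 20 tested, and PHGDH, the first enzyme of serine synthesis, and TRIB3, a feedback pseudokinase, were lower without overlap (10% of the list against 3.40% of all genes). PHGDH was at 25.9, 114 and 60.8 CPM against 229, 316 and 133 CPM (log2 difference -1.76 ± 0.630, SE, adjusted p = 0.998, edgeR). ATF4, the factor that drives both, overlapped at -0.63 ± 0.458. Unfolded protein response genes had a median of -0.32 over 20 tested with none free of overlap, and XBP1, one of its factors, differed by -0.43 ± 0.557. NRF2 targets had a median of 0.43 over 20 tested and autophagy genes 0.08 over 25. ATG7, the E1-like enzyme of autophagy, was the autophagy gene without overlap (4% of the list, near the 4.16% of all genes). It was at 93.0, 79.8 and 72.2 CPM against 35.3, 40.3 and 46.7 CPM (log2 difference 1.00 ± 0.330, SE, adjusted p = 0.998, edgeR).

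Proliferation genes had a median of 0.46 with 23 of 26 above 0, against 52.2% of all genes. CCNB1, CCNA2, MCM7 and E2F1 were higher without overlap (15.4% of the list against 4.16% of all genes). E2F1, a factor of S phase entry, was at 79.6, 74.3 and 90.0 CPM against 37.9, 52.3 and 60.6 CPM. MCM7, a helicase subunit, was at 717, 1087 and 405 CPM against 373, 367 and 295 CPM. Growth rate was not measured in these files. None of the 26 was called.

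Genes of tissue identity showed wide spread within each side. HOX genes, which keep positional identity along the body axis, had a median of -1.19 with 6 of 36 above 0. HOXB5, HOXB8 and HOXB9 were among those lower without overlap (11.1% of the list against 3.40% of all genes). HOXB8 was at 0.132, 2.21 and 0.692 CPM in H-23, H-1299 and CAPAN-2 and at 6.31, 30.1 and 21 CPM in RKO, DLD-1 and PANC-1 (log2 difference -4.24 ± 1.25, SE, adjusted p = 0.998, edgeR). Wnt feedback targets had a median of -1.44 with 0 of 13 above 0. TCF7, a Wnt factor and target, was at 15.5, 10.6 and 14.7 CPM against 65.8, 25.7 and 17.7 CPM. The Wnt receptor LGR5 overlapped, since it was at 50.9 CPM in DLD-1 but at 0.039 in RKO. The part of tumour type in these differences cannot be told apart from the side for the lung and colon lines.

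The epithelial and mesenchymal state crossed the sides. CDH1, the epithelial cadherin, was at 1255 CPM in CAPAN-2, 1079 in DLD-1, 104 in H-23 and 52.8 in PANC-1, with 0.039 CPM in RKO and no count in H-1299. EPCAM, an epithelial adhesion protein, was likewise highest in CAPAN-2 and DLD-1, at 957 and 740 CPM, and lowest in H-1299, at 0.187. VIM, the mesenchymal filament, was at 3747 CPM in H-1299, 2492 in PANC-1 and 1585 in H-23 but at 0.703 in DLD-1, and ZEB1, a repressor of CDH1, was highest in RKO at 798 CPM. Each side thus held lines of both states, and the log2 differences were 0.26 ± 3.02 for CDH1, 0.30 ± 2.53 for EPCAM, 1.09 ± 2.47 for VIM and -2.87 ± 1.97 for ZEB1 (SE). FN1 was the mesenchymal gene at appreciable level without overlap, with 19.2, 65.3 and 131 CPM against 5.01, 13.9 and 8.18 CPM (log2 difference 2.99 ± 0.806, SE, adjusted p = 0.998, edgeR). SNAI2 also did not overlap, at 0.249, 0.284 and 9.38 CPM against 0 to 0.009 CPM, so that CAPAN-2 alone was above 1 CPM. FN1 and SNAI2 were 11.1% of the mesenchymal list, against 4.16% of all genes. Epithelial genes had a median of 0.34 over 24 tested and mesenchymal genes 1.04 over 18.

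**Figure D5:**
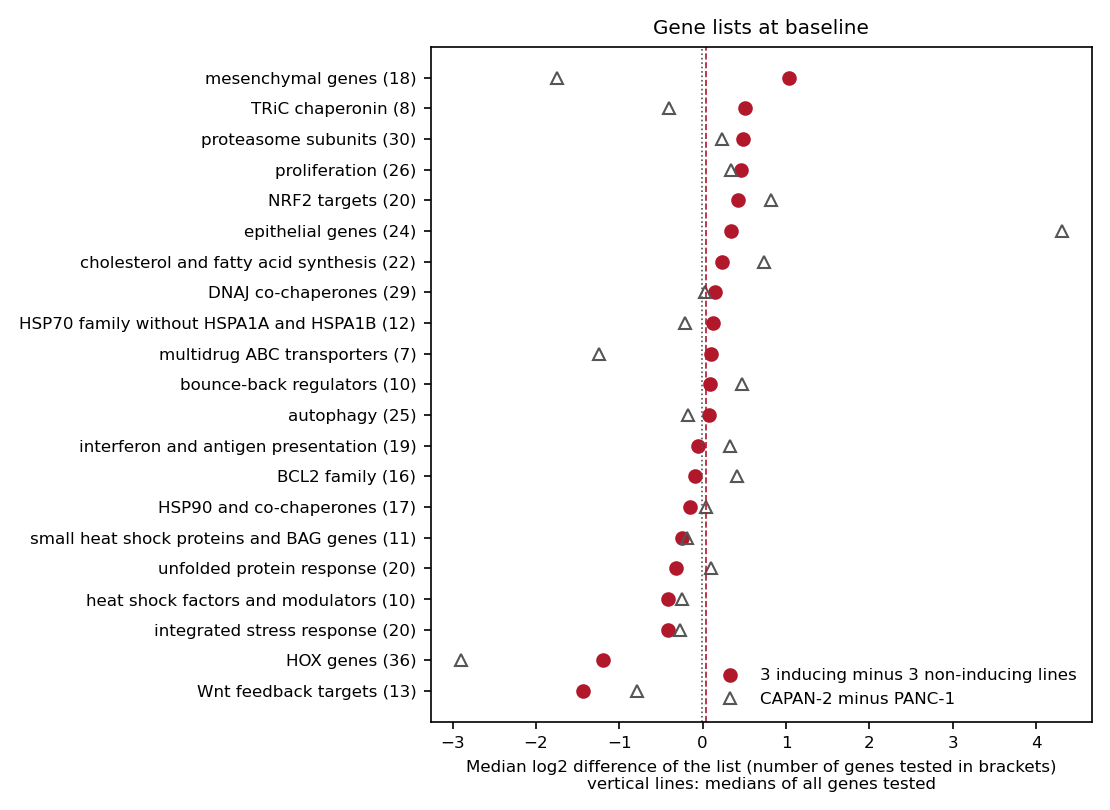
Median log2 difference of gene lists with at least 5 genes tested, with filled circles for the 3 inducing minus the 3 non-inducing lines and open triangles for CAPAN-2 minus PANC-1, and vertical lines at the medians of all genes (0.04 and -0.01). Proteasome subunits lay right of 0 in both, at 0.48 and 0.23, while TRiC subunits (0.51 and -0.40) and mesenchymal genes (1.04 and -1.75) changed sign within the pancreatic pair.

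Within the pancreatic pair the libraries were the units, so the test measures the spread between cultures of 1 line each. Of 17658 genes tested, 7043 (39.9%) were called higher and 7093 (40.2%) lower in CAPAN-2, 80.1% in all, with a median log2 difference of -0.01. A call there was therefore the rule for any gene. Proteasome subunits had 18 of 30 called higher and 5 lower, with a median of 0.23. The TRiC list went the other way from the comparison of lines, with 1 of 8 higher, 6 lower and a median of -0.40. All 24 epithelial genes were higher in CAPAN-2 with a median of 4.31, and HOX genes had 6 higher and 23 lower of 30 with a median of -2.90. HSPA8 differed by 0.02 ± 0.0562 (SE, adjusted p = 0.799, edgeR), while HSP90AB1 was lower by -1.30 ± 0.0567 and DNAJA1 by -1.33 ± 0.0597 on the log2 scale (adjusted p = 2.17e-10 and 2.93e-10, edgeR). BAG3 was lower by -1.90 ± 0.0510 (adjusted p = 1.81e-12, edgeR), STUB1 by -0.87 ± 0.0629 (adjusted p = 3.76e-08) and HSF2 by -2.03 ± 0.0609 (adjusted p = 5.48e-12). PSMB5 was higher by 0.55 ± 0.0635 (adjusted p = 4.13e-06, edgeR). For BAG3, STUB1, PSMB5 and the other proteasome subunits without overlap, the absence of overlap between the sides already fixed the direction in this pair. Both lines of the pair also enter the comparison of sides, so the pair is not an independent view of any list.

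The remaining lists gave no call either. Bounce-back regulators of the proteasome had a median of 0.09 over 10 tested, cholesterol and fatty acid genes 0.23 over 22, BCL2 family genes -0.09 over 16, interferon and antigen presentation genes -0.05 over 19 and multidrug transporters 0.10 over 7. FASN, which makes palmitate, was lower without overlap at 523 to 613 CPM against 818 to 1295, and ABCC5, a drug efflux transporter, at 43 to 62.9 CPM against 72.5 to 117. FASN was 4.55% of its list and ABCC5 14.3%, against 3.40% of all genes. Of the cancer-germline list 1 of 26 genes could be tested, and 4 genes of the immunoproteasome and activator list, with a median of 0.32.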

How the data were processed

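Raw read counts per gene were deposited by the authors as 1 table of 33892 rows and 48 libraries. Per the labels' protocols the libraries were stranded total RNA libraries. The submitters' processing notes name bcl2fastq 2.19, FastQC, Trimmomatic, HISAT2, DESeq2 and the build hg38. The counting program and its use of strand are not given in the sources used here, so antisense and overlapping genes are uncertain. An identifier occurred in more than 1 row for 4803 rows, and 1652 rows carried a symbol that GENCODE release 29 gives to another identifier. Both kinds stayed in the fit and were left out of lists and named genes.

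Counts of the 3 DMSO libraries of a line were summed, filtered with filterByExpr, scaled with TMM and tested in edgeR 4.0.16 (R 4.3.3) by quasi-likelihood, 3 lines against 3. Adjusted p is Benjamini-Hochberg over all genes tested, with a threshold of 0.05. With 3 lines a side an exact permutation of 1 value cannot go below p = 0.1. CAPAN-2 and PANC-1 were compared over 6 libraries in the same way. Alternatives used DESeq2 1.42.0 and limma 3.58.1, other scalings and filters, tumour type as a term, thinned counts, added myeloma lines, and fits without lines or libraries. No pair of replicates agreed within sampling noise (lowest chi-square divided by its degrees of freedom 3.475), and all were kept. Totals limit counting error only, since no molecular identifiers are known.

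Named genes were the 12 with the smallest p in each direction among single-row genes with no overlap between the sides and at least 2 CPM in the 3 higher lines, with 33 fixed genes. The members, lists and fixed genes were chosen with earlier results of these data known. Lists (24, with 8 of cell type markers) are described by counts and medians without a set test. A few items are not reported here.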

Additional observations from a re-analysis of the deposited data

How the results depend on the processing

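With lines as units, 0 genes were called higher and 0 lower under every scaling, filter, thinning, summed-row, tumour-type, myeloma and null-fold alternative, and without each line, each replicate number or the first PANC-1 library (0 to 0), with the exceptions that follow. DESeq2 called 105 higher and 46 lower. The line as a random block called 3 and 4, and with the replicate block 0 and 1. Lines as fixed groups over 18 libraries called 7518 and 6376, since its error is between cultures. In the pancreatic pair a null fold change of 1.5 left 4491 higher and 4581 lower. The log2 change of HSPA1A and HSPA1B in PANC-1 turned to 0.02 with the replicate block and ran from -0.48 to 0.59 without single libraries. Same-numbered replicates of different lines did not deviate together (45 correlations, -0.057 to 0.087), so the numbers pair no samples.

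Of 1243 values of 52 genes under alternatives, 1122 kept direction and side of the threshold, 72 passed it and 49 reversed, and the causes were not tested. Limma on line means gave NFE2L1 0.02 and EPCAM -2.54, and fixed groups gave NFE2L1 0.02, EPCAM -2.68 and CDH1 -0.79. The random block gave EPCAM -4.22, CDH1 -2.67 and ZEB1 0.57, and with the replicate block -3.45, -0.69 and 0.18. Tumour type as a term, which leaves the pancreatic pair to set the difference, gave HSPA5 0.57, HSP90B1 0.18, DNAJA1 -1.32, HSPB1 1.18, CRYAB 0.46, NFE2L2 -0.24, XBP1 0.75 and VIM -7.58. With H-929 and RPMI added, HSP90AB1 was 0.12, HSP90B1 0.27, BAG1 0.27, XBP1 2.38, EPCAM -0.29 and CDH1 -0.50. Without single lines or libraries the ranges were HSPA6 -0.39 to 2.08, DNAJA1 -0.17 to 0.47, CRYAB -1.79 to 0.61, HSP90AA1 -0.79 to 0.90, HSPB1 -0.59 to 0.09, VIM -0.08 to 7.36, HSF2 -1.11 to 0.06, HSP90AB1 -0.36 to 0.36, EPCAM -6.85 to 3.89, CDH1 -2.87 to 4.10, ZEB1 -3.46 to 0.30, XBP1 -0.98 to 0.09 and NFE2L1 -0.50 to 0.57.

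The 3 lines a side, 1 of them placed by 1 library, limit what the comparison can show. Thinned to the lowest total, the genes without overlap numbered 715 higher and 613 lower.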

Other observations

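Some genes were close to off in all 3 lines of a side. With limits chosen after the values were seen, 19 genes were at 0.5 CPM or less in each non-inducing line and at 2 CPM or more in each inducing line, and 1, the RPSA pseudogene RPSAP47, showed the opposite. Beyond the named genes these include EYA4, a developmental phosphatase and transcriptional cofactor (5.36, 26.3 and 8.31 CPM in H-23, H-1299 and CAPAN-2 against 0, 0.352 and 0.011 in RKO, DLD-1 and PANC-1), and TBX20, a heart T-box factor (6.68, 11.5 and 11.6 CPM against 0, 0 and 0.077). TRPC4, a cation channel, was at 7.94, 4.64 and 8.07 CPM against 0, 0 and 0.232, and BNC1, a zinc finger factor of keratinocytes and germ cells, at 7.23, 11.8 and 2.80 CPM against 0, 0.045 and 0.221. None passed the adjusted threshold (adjusted p = 0.998, edgeR).

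On chromosome 19 lay 5 of these 19 genes (26.3%), against 6.53% of all tested genes with a position. They are ZSCAN18, ZNF549, PNMA8A, ZNF542P and ZFP28, a zinc finger gene at 21.4, 26 and 7.36 CPM against 0.019, 0.207 and 0. Neighbouring zinc finger genes of that chromosome are not independent of each other, and no test was made. Of all genes without overlap, 59 of 788 higher (7.49%) and 20 of 602 lower (3.32%) lay there.

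ITGAM, an integrin of myeloid cells, was at 7.59, 4.51 and 2.66 CPM in the inducing lines against 0.058, 0.045 and 1.27 CPM. It was the only 1 of 4 tested leukocyte markers without overlap (25%, against 4.16% of all genes). All 4 had a log2 difference above 0, against 52.2% of all genes, and none was called. With 4 genes these shares are too coarse to read. The T cell markers CD3E and CD3D were at 0 in H-23.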
